A study of Drosophila melanogaster with 4 samples.

Results

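Transcripts for subunits of the vacuolar proton pump were followed in fly brains (Drosophila melanogaster) taken from pharate adults, which are fully formed but still enclosed in the pupal case. The members are all probe sets that the platform annotation gives to 1 of 10 pump genes: Vha44, Vha55, Vha26, Vha68-1, Vha68-2, Vha16-1, Vha100-1, VhaSFD, Vha13 and Vha14-1. Of these genes 8 had a probe set, and they had 10 of the 13966 probe sets on the array that are not controls. Vha68-1 and Vha68-2, which encode the catalytic A subunit, were not analysed here. Neither matched, by symbol or gene number, a probe set annotated with 1 gene symbol. Probe sets annotated with several symbols were not assigned to listed genes. The rule names the genes and uses no signal from the arrays, though the list was drawn up with earlier results of these data known.

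The study looked for RNAs bound in vivo by LARK, an RNA-binding protein that acts downstream of the circadian clock. All samples were Canton-S wild-type brains dissected in the daytime, about 1000 brains per lysate. Each of 2 lysates gave 1 array of RNA precipitated with an anti-LARK antibody (LARK IP 1 and LARK IP 2) and 1 array of RNA kept from the same lysate before precipitation (total RNA 1 and total RNA 2). Each array thus averages over every cell type of a large pool of brains, and fewer cells of a type cannot be told apart from less RNA per cell.

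The vacuolar proton pump (V-ATPase) is a rotary enzyme that spends ATP to move protons into endosomes, lysosomes and secretory vesicles. Its cytosolic V1 sector holds the catalytic subunits A and B, a central stalk (D and F), peripheral stalks (E and G) and the subunits C and H, while its membrane sector V0 holds subunit a, subunit d and the ring of c subunits through which protons pass. In neurons the acid interior of synaptic vesicles drives transmitter loading, and reversible separation of V1 from V0, in which subunit C is released, is a known way of switching the pump off in yeast and in insects.

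Values are MAS5 signals, scaled by the authors to a common target on each array, so a signal shows the share of a transcript in a sample and not how much RNA was precipitated. Signals of different probe sets are not comparable with each other, because probes bind with different strength. After this scaling the arrays had a median signal of 2.7 to 2.8. Scaling brings such medians together, so they do not show that the arrays were alike. Spiked and GAPDH controls differed between the lysates, as given below. On each array 35% to 37.1% of probe sets lay above 4.49, taken here as background. This is the 95th percentile of 23 control probe sets for foreign sequences. Of the brain cell markers looked at, 4 of 8 neuronal genes and 4 of 6 glial genes lay above background on all 4 arrays; the others did so for 0 of 3 fat body genes, 1 of 4 haemocyte genes, 2 of 3 muscle genes, 2 of 3 Malpighian tubule genes and 4 of 5 photoreceptor genes. The summed signal of the Malpighian tubule markers, from a tissue known for its high level of this pump, was 33.1 and 24.2 in LARK IP and 36.6 and 41.5 in total RNA.

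Of the 10 probe sets, 7 lay above background on all 4 arrays. The plot of signals on each array shows them by sector.

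**Figure D1:**
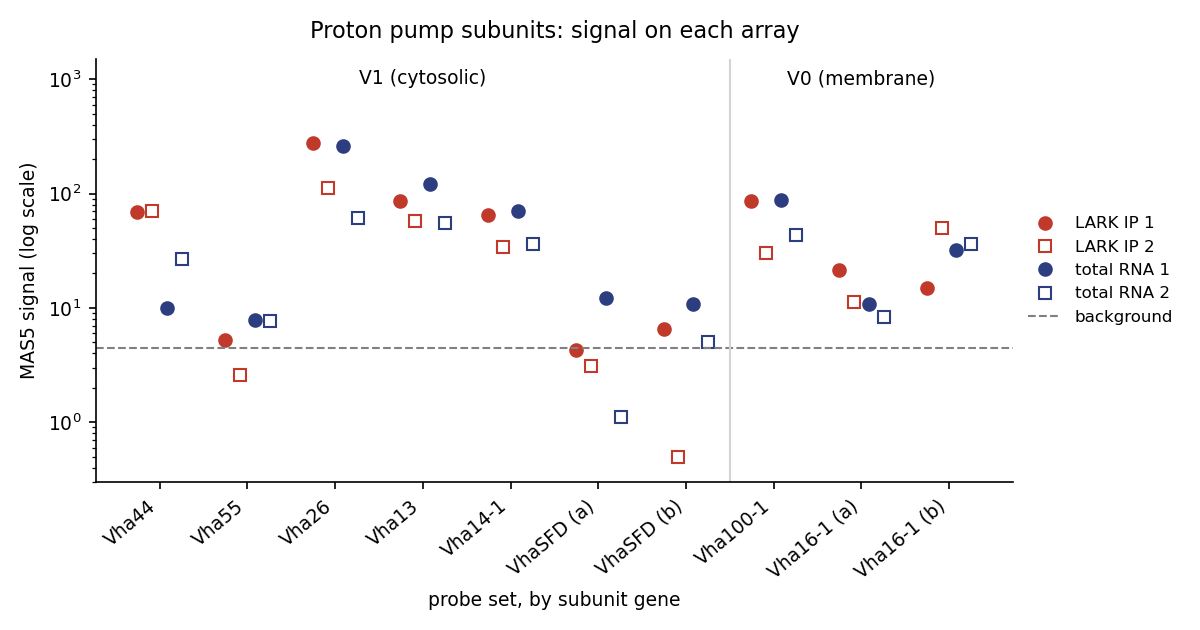
MAS5 signal (log scale) of the 10 probe sets of the listed pump genes on the 2 LARK IP arrays (red) and the 2 total RNA arrays (blue), filled for replicate 1 and open for replicate 2, with the background of 4.49 as a dashed line; (a) and (b) are 2 probe sets of 1 gene. In Vha44 both LARK IP signals (68.5 and 70.8) lie above both total RNA signals (10 and 26.6), and in Vha26, Vha13, Vha14-1 and Vha100-1 replicate 1 lies above replicate 2 in both kinds of RNA.

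Which pump transcripts were more abundant with LARK than in the lysate was the first comparison. Vha44 (CG8048), subunit C of the V1 sector, was the 1 listed gene that rose. Its signals were 68.5 and 70.8 in LARK IP against 10 and 26.6 in total RNA. The groups did not overlap: the LARK IP arrays were close to each other and the total RNA arrays differed. It was 6.42-fold higher in replicate 1 and 2.61-fold higher in replicate 2 on the scale of signal + 0.8, where 0.8 is an offset that damps ratios of low signals. The mean log2 ratio was 2.03 ± 0.92 (SD, n = 2), with a limma adjusted p = 0.0165 and a 95% interval of 1.29 to 2.78. Like the other intervals here, it does not describe the spread of the 2 ratios. It rests on a limma standard error (0.33 for Vha44) that draws mainly on the variance of other probe sets. The prior had 7.84 degrees of freedom against 1 residual. The summed signal of the 8 neuronal markers was also higher in LARK IP. It was 235.4 against 63.1 in replicate 1 and 680.3 against 315.8 in replicate 2. That of the 6 glial markers was 308.2 against 336.5 and 208.9 against 178.4. Bright probe sets dominate such sums, and 4 of the 8 neuronal genes lay above background on all 4 arrays. The sums thus do not show a rise shared by all 8. Both arrays of a replicate came from 1 lysate, so from the same cells. From which of those cells the precipitated RNA came was not tested.

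Among all 3492 tested probe sets, the brightest 25%, the ratio of Vha44 was the 42nd highest. Of the 8 tested probe sets of the listed genes 1 rose and 0 fell, beside 2.69% that rose and 0.172% that fell among all tested. Likewise 1 of 8 was at least 2-fold higher in LARK IP in both replicates and 0 were at least 2-fold lower, beside 3.47% and 0.716% of all tested. With 8 probe sets, 1 call is no measure of the pump as a group. The median log2 ratio of the 8 was -0.15, and that of all tested was -0.04.

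The call of Vha44 was lost in several other fits. When the replicate block was left out the ratio was the same and the adjusted p was 0.588, with quantile normalization the ratio was 1.93 and the adjusted p 0.0815, and without the variance trend the adjusted p was 0.278. Without total RNA 1 the ratio was 1.36, without total RNA 2 it was 2.71, and leaving out any array, fitted without the block, gave adjusted p-values of 0.317 to 1.

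None of the tested stalk subunits of V1 (F, G and E) passed the test. Vha14-1 (CG8210), subunit F of the central stalk, had 65.2 and 34.0 in LARK IP against 69.7 and 36.0 in total RNA. Its 2 replicate ratios were nearly equal, 0.936-fold and 0.946-fold, and its log2 ratio of -0.09 had a 95% interval of -0.61 to 0.43 (adjusted p = 0.944). Vha13 (CG6213), subunit G of the peripheral stalk, had 86.8 and 57.9 against 120.7 and 55.5. The groups overlapped, and the ratio was under 1 in replicate 1 and just over 1 in replicate 2 (log2 ratio -0.21 ± 0.38; 95% interval -0.73 to 0.32; adjusted p = 0.792).

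Vha26 (CG1088), subunit E and the partner of subunit G in the peripheral stalk, had 279.0 and 111.5 in LARK IP against 262.8 and 61.6 in total RNA. LARK IP was higher in each pair, by 1.06-fold and 1.80-fold. The lysates differed by more than this, but the replicate block takes that difference out. The log2 ratio was 0.47 ± 0.54, an SD above the mean, with a 95% interval of -0.08 to 1.01 (limma adjusted p = 0.494).

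Vha55 (CG17369), the nucleotide-binding B subunit, had the lowest ratio of the tested probe sets of these genes. Its signals were 5.2 and 2.6 in LARK IP against 7.9 and 7.6 in total RNA. Both LARK IP signals lay under both total RNA signals, by a mean log2 ratio of -0.92 ± 0.54, and LARK IP 2 was not above background. It did not pass (adjusted p = 0.559), and the interval of -2.16 to 0.32 shows how little a probe set this dim can resolve.

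VhaSFD (CG17332), the regulatory subunit H, had 2 probe sets, both too dim to be tested. One (144191_at) read 4.3 and 3.1 in LARK IP against 12.2 and 1.1 in total RNA, so total RNA 1 alone lay above background. The other (148646_at) read 6.5 and 0.5 against 10.9 and 5.0. LARK IP was lower in both replicates for the second probe set and in replicate 1 only for the first, and no fold is given because 4 of these 8 signals were not above background.

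In the membrane sector, Vha100-1 (CG1709), the a subunit used at synapses in the fly, had 85.6 and 30.2 in LARK IP against 87.5 and 43.5 in total RNA. LARK IP was the lower of each pair, by little in replicate 1. The log2 ratio was -0.27 ± 0.34, with a 95% interval of -0.81 to 0.27 (adjusted p = 0.730).

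The 2 probe sets of Vha16-1 (CG3161), which encodes the c subunit of the proton-carrying ring, did not give the same picture. One (141528_at) had 21.5 and 11.2 in LARK IP against 10.8 and 8.3 in total RNA, higher in LARK IP in both replicates (1.92-fold and 1.32-fold; log2 ratio 0.67 ± 0.39; adjusted p = 0.526). The other (142120_at) had 15 and 50.1 against 32.1 and 35.9, lower in replicate 1 and higher in replicate 2 (log2 ratio -0.29 ± 1.08; adjusted p = 0.815). Both were above background on all 4 arrays and neither passed, so the level of this transcript in LARK IP relative to total RNA is not settled by these arrays. Reference annotation lists 4 transcripts of the gene, and which of them each probe set detects was not tested.

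Across the 7 tested probe sets other than that of Vha44, the upper ends of the 95% intervals ran from 0.27 to 1.5, and the interval of Vha44 began at 1.29. The difference between Vha44 and the other subunits was not tested itself. The plot of enrichment in LARK IP shows the intervals together with those of the other subunits.

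**Figure D2:**
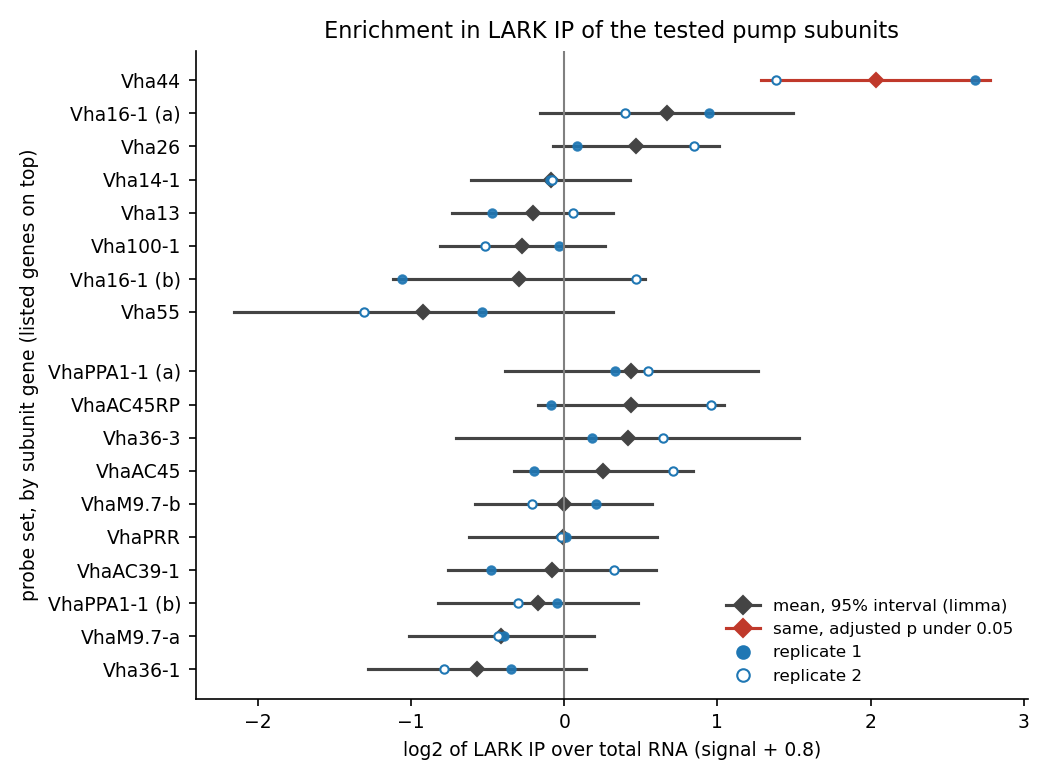
Log2 ratio of LARK IP over total RNA (signal + 0.8) for the 18 tested probe sets of pump subunits, the 8 of the listed genes on top and 10 of other subunits below; diamonds and lines are the mean of the 2 replicates with limma's 95% interval, and blue circles are replicate 1 (filled) and replicate 2 (open). Vha44 is the 1 probe set past an adjusted p of 0.05 (red, interval 1.29 to 2.78); every other interval includes 0.

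The remaining subunits of the pump were taken from a list of 24 further genes, of which 22 had a probe set. Of their 23 probe sets 10 were tested, with a median log2 ratio of -0.004. By limma's adjusted p 0 rose and 0 fell, beside 2.69% and 0.172% of all tested. At an unadjusted limma p under 0.05 it was also 0 of 10, beside 419 of all 3492. With 10 probe sets, 0 calls do not set these subunits apart from the rest. The highest ratios were those of a probe set of VhaPPA1-1, the c″ subunit of the ring, at 0.44 ± 0.15 (9.4 and 19.2 against 7.3 and 12.9; adjusted p = 0.716) and of VhaAC45RP, a relative of the accessory subunit VhaAC45, at 0.44 ± 0.74 (258.0 and 171.7 against 274.2 and 87.8; adjusted p = 0.577). The second probe set of VhaPPA1-1 had -0.17 ± 0.18. The lowest were those of Vha36-1, subunit D of the central stalk, at -0.57 ± 0.31 (26.3 and 7.6 against 33.7 and 13.7; adjusted p = 0.533) and VhaM9.7-a, a small e subunit, at -0.41 ± 0.03 (32.1 and 16.5 against 42.3 and 22.5; adjusted p = 0.611).

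VhaPRR (ATP6AP2), an accessory protein of the pump, gave almost the same signal in LARK IP and total RNA of each lysate: 30.7 and 20.0 against 30.5 and 20.3. Several paralogs that this array represents were not above background on any of the 4 arrays, namely Vha68-3, Vha36-2, Vha14-2, Vha100-4, Vha16-5, VhaM9.7-c and VhaM9.7-d. Vha68-3 is the A subunit gene with a probe set of its own here, so no probe set used here measured subunit A above background. Of the dim probe sets, that of Vha100-5 had 3.1 and 4.7 in LARK IP against 0.8 and 0.8, and that of Vha16-2 had 0.2 and 0.7 against 4.8 and 2.3, in each case with 1 of 4 signals above background.

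Genes that depend on the acid interior of vesicles and lysosomes, or that regulate the pump, were looked at beside it. Of 9 tested probe sets of the first kind 1 rose and 0 fell, beside 2.69% and 0.172% of all tested. This was Vmat, the vesicular monoamine transporter, which exchanges protons for transmitter, with 57.2 and 165.4 in LARK IP against 16.1 and 48.5 in total RNA for 1 probe set; its other probe set was at background on all 4 arrays. The ratio was 3.43-fold and 3.37-fold in the 2 replicates, and the adjusted p = 0.00552. As for Vha44, Vmat did not pass with quantile normalization (adjusted p = 0.0612), without the variance trend (0.243), without the replicate block (0.95) or with any array left out (0.485 to 1), where its log2 ratio ran from 0.99 to 2.54. Lamp1, a lysosomal membrane protein, had 9.6 and 7.4 against 5.3 and 2.0, where total RNA 2 was not above background (log2 ratio 1.16 ± 0.55; adjusted p = 0.453). The lowest tested ratios were those of the GABA transporter VGAT (7.9 and 7.1 against 17.9 and 8.7; log2 ratio -0.69 ± 0.59; adjusted p = 0.571) and the cholesterol transporter Npc1a (10.8 and 17.4 against 16.9 and 21.0; log2 ratio -0.44 ± 0.25; adjusted p = 0.658). VGlut, the vesicular glutamate transporter, was too dim to be tested, with 2.2 and 0.8 in LARK IP, not above background, against 7.1 and 6.4 in total RNA.

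Of the list of pump assembly and regulation 2 probe sets were tested and 0 passed. Among all tested, 2.69% rose and 0.172% fell, so 0 of 2 says little. RagC-D, a GTPase of nutrient sensing at the lysosome, had 7.2 and 6.6 against 11.3 and 7.8 (log2 ratio -0.41 ± 0.27; adjusted p = 0.785). A probe set of mio, of the same pathway, had 30.0 and 47.6 against 82.2 and 73.5 (log2 ratio -1.02 ± 0.57; unadjusted p = 0.00375 in the limma fit, adjusted p = 0.0961). Its name (145625_f_at) marks it as shared within a sequence family, and the second probe set of mio, which was dim, had 3.1 and 4.8 against 0.8 and 2.3, the opposite direction.

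The second comparison was between the 2 lysates. Most pump transcripts were higher in lysate 1, in total RNA and in LARK IP alike. Among the tested probe sets of the listed genes the median log2 of total RNA 1 over total RNA 2 was 0.64, against -0.01 over all tested probe sets. This shift in total RNA was not particular to the pump. The 9 tested probe sets of genes that depend on the acid interior of vesicles and lysosomes also had a median of 0.64. Of these, 6 were higher in lysate 1 in both kinds of RNA. Between the LARK IP arrays their median was 0.16, against 0.86 for the listed genes. Vha26 differed most, 4.22-fold, which was higher than for 98.7% of tested probe sets; its signals were 262.8 and 61.6. Vha13 was 2.16-fold higher in total RNA 1, Vha100-1 1.99-fold and Vha14-1 1.92-fold. Vha44 went the other way, at 10 and 26.6.

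At least 2-fold differences in total RNA were found for 2 of 8 probe sets in favour of lysate 1 and 1 of 8 in favour of lysate 2, beside 10.1% and 11.2% of all tested. In LARK IP, 2 of 8 were at least 2-fold higher in lysate 1 and 1 of 8 at least 2-fold lower, beside 9.34% and 10.6%. With 1 array on each side there is no test. Together with the other subunits, 14 of 18 tested probe sets were higher in lysate 1 in total RNA. The same 14 were so in LARK IP. Of all tested probe sets, 48.7% were higher in lysate 1 in total RNA, 48.7% in LARK IP and 30.4% in both.

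The exceptions, 4 probe sets in each kind of RNA, were Vha44, 1 of the 2 probe sets each of Vha16-1 (142120_at) and VhaPPA1-1 (141828_at), and VhaAC45, an accessory subunit of V0. VhaAC45 had 75.8 and 102.6 in total RNA and 66.0 and 168.1 in LARK IP, higher in lysate 2 in both. For Vha44 the excess of lysate 2 in total RNA, a log2 ratio of -1.34 for lysate 1 over 2, had no counterpart in LARK IP, where it was -0.05. For Vha16-1 it was the reverse: -0.16 in total RNA and -1.69 in LARK IP for that probe set. The plot of the difference between lysates shows both at once.

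**Figure D3:**
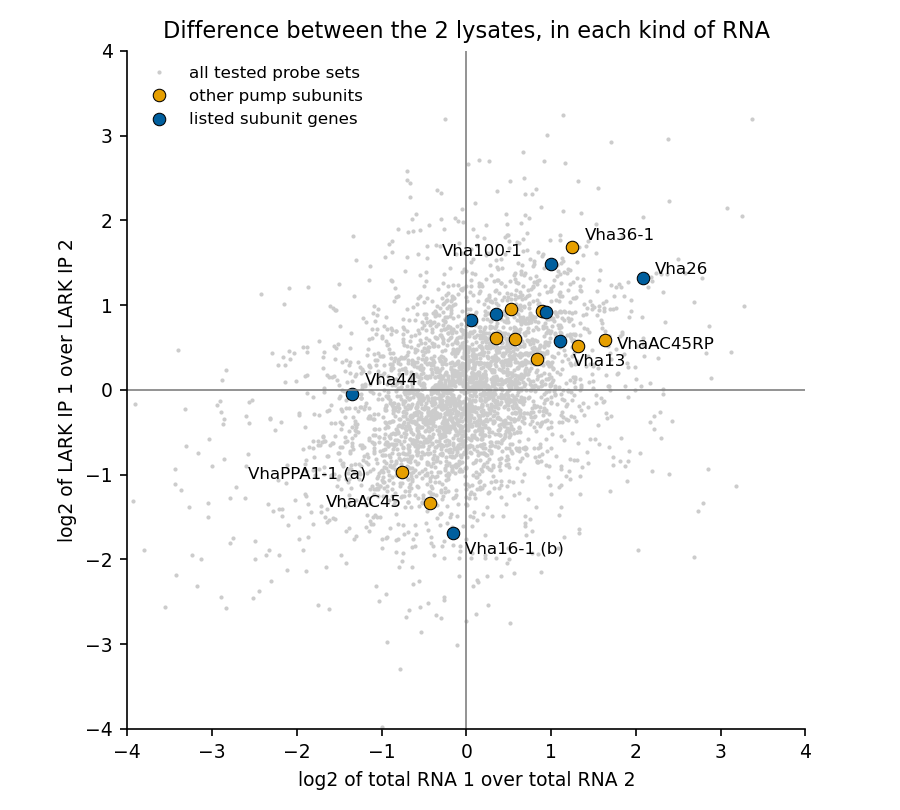
Log2 ratio of lysate 1 over lysate 2 in total RNA (horizontal) and in LARK IP (vertical) for the listed pump genes (blue), other pump subunits (orange) and all 3492 tested probe sets (grey, of which 1 lies outside the axes). The subunits lie mainly in the upper right, with 14 of 18 higher in lysate 1 in both kinds of RNA; Vha44 lies to the left, at -1.34 and -0.05.

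Other measures also differed between the lysates. The 9 probe sets of the spiked hybridisation controls had a median log2 of 0.56 for total RNA 1 over total RNA 2 and 0.77 for LARK IP 1 over LARK IP 2. With arrays scaled on these controls, a setting chosen after the data were seen, the median log2 ratio of the listed genes between the total RNA arrays was 0.17 in place of 0.64, and 1 probe set in place of 2 was at least 2-fold higher in lysate 1. This scaling divides each array by 1 factor, so it moves all probe sets by about the same amount. The median of all tested probe sets, -0.01 without this scaling, was not computed with it. The value of 0.17 thus does not show that the pump genes came closer to the other probe sets. The summed signal of the 6 glial markers was 336.5 in total RNA 1 and 178.4 in total RNA 2, and 308.2 and 208.9 in LARK IP. That of the 8 neuronal markers ran the other way, 63.1 and 315.8 in total RNA and 235.4 and 680.3 in LARK IP. The array's GAPDH control probe set for the 3′ end, chosen for mention after its values were seen, read 109.6 and 51.4 in total RNA and 91.1 and 48.5 in LARK IP, also higher in lysate 1, while its 5′ counterpart read 0.2 to 11.5, much lower, on all 4 arrays. The eIF4a control differed less, with 356.6 and 338.3 in total RNA and 511.7 and 398.1 in LARK IP for the 3′ end, and 7.1 to 9.6 for the 5′ end. The part of these differences in the pump values was not tested. By the headers of the array description files, the arrays of a lysate were also hybridised on the same day and those of the other lysate on another day, so lysate and day cannot be told apart, while each day held 1 LARK IP and 1 total RNA array.

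Among all tested probe sets with 1 gene symbol, those with the pattern most like Vha44, by the distance between the pairs of replicate log2 ratios, were Paip2, a regulator of poly(A)-binding protein, east, which encodes a nuclear protein, and Pp1alpha-96A, a catalytic subunit of protein phosphatase 1. Paip2 had 15.7 and 20.9 in LARK IP against 1.9 and 7.1 in total RNA (distance 0.101 on the log2 scale), and east had 46.8 and 71.8 against 7.0 and 25.5 (0.107). Pp1alpha-96A had 20.8 and 31.9 against 2.5 and 10.8 (0.113). The likeness rests on 2 replicates, and 1.9 and 2.5 lie under background.

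The genes also differ in size in the RefSeq annotation. Vha44 spans 11825 bases, introns included, the longest of the 10 listed genes and longer than 83.8% of the 2879 tested genes with a known span, whose median is 3082 bases. It is followed by Vha16-1 at 7849 and Vha100-1 at 6788 bases, and Vha14-1 is the shortest at 659 bases. RefSeq lists 5 transcripts for Vha44, 10 for Vha100-1 and 1 for Vha14-1, against a median of 2 over the tested genes.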

How the data were processed

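LARK IP and total RNA of the same lysates were hybridised to Affymetrix DrosGenome1 arrays, 1 per sample. The authors computed signal intensity values per probe set with MAS5 and scaled each array to 1 target intensity; the lowest deposited intensity is 0.1. Detection calls were not used here, and the number of arrays limits the precision. Probe sets were named from the platform annotation (of 13966, 12442 had 1 symbol, 327 several and 1197 none), and 0 symbols needed an update to RefSeq Release 6 names.

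Log2(signal + 0.8), with the offset at the median 25th percentile of the arrays, was fitted with limma (version 3.58.1, R version 4.3.3; lmFit, eBayes with variance trend, Benjamini-Hochberg over 3492 probe sets, threshold 0.05). The replicate number was a block, because IP and total RNA of 1 number came from 1 lysate by the series description; lysate differences in IP and total RNA correlated across probe sets (Pearson's r 0.361). The fit has 1 residual degree of freedom and a prior of 7.84. The code was tested on simulated data. Named genes were all probe sets of the listed genes, of the other lists those that passed, the 2 highest and 2 lowest tested ratios and those changed at least 2-fold in both replicates, and the 3 nearest to Vha44; VhaPRR, VhaAC45, the paralogs under background and the second probe sets of Vmat, VhaPPA1-1 and mio were named after their values were seen. Members and lists were chosen with earlier results of these data known. Sequences were not used here.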

Additional observations from a re-analysis of the deposited data

How the results depend on the processing

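Of the 110 refits of single probe sets of the listed genes under other settings, 103 left the call on its side of the threshold. The 7 others were all of Vha44, which then did not pass. This tally is no measure of stability. Most refits were of the 7 probe sets other than that of Vha44. Their adjusted p-values in the main limma fit, 0.494 to 0.944, were far from the threshold. Vha44 was the 1 call that could be lost. The number of listed probe sets that rose was 0 with quantile normalization, without the variance trend, without the replicate block and with any array left out, and 1 in the other settings; 0 fell in any. Over all tested probe sets, 94 rose and 6 fell; the counts were 0 and 0 without the replicate block and with any array left out, 11 and 0 with quantile normalization, 1 and 0 without the trend, and 61 and 3 with all 4 signals above the 75th percentile. The number that fell was 16 with 4 times the pseudocount, 2 with a smaller pseudocount or none, and 0 with the top 15% filter and with scaling on the spiked controls. The median log2 ratio of the listed genes, -0.15, ran from -0.57 to 0.42 with 1 array left out and was 0.10 with the spiked controls. Scaling on the spiked controls moves all probe sets by about the same amount, here and in the ratio of the total RNA arrays. Between the total RNA arrays, the median of the listed genes was 0.97 without a filter and 0.17 with the spiked controls, with 4 and 1 at least 2-fold higher in total RNA 1; in the other settings it ran from 0.59 to 0.94, with 2 or 3. Leaving out an array leaves 1 array in its group, which is assumed to vary like the other; those fits had no block.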
